A study of Danio rerio with 4 samples.

Results

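Isolated Hif-1α peaks are peaks of the vhl mutant list that have no other vhl peak in their surroundings. They were selected on position alone. A peak was counted as isolated when its summit, the base with the highest pile-up of reads, lay more than 200 kb from the summit of every other vhl peak on the same chromosome. Of 5177 vhl peaks, 830 were isolated (16.0%), and the other 4347 had at least 1 neighbour within 200 kb.

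Hypoxia Inducible Factor (HIF) is a transcription factor made of an oxygen-regulated α subunit and a stable β subunit, and it switches on genes for glycolysis, blood vessel growth and red cell formation. When oxygen is plentiful, HIF-α is hydroxylated and handed over for destruction by the von Hippel-Lindau protein, pVHL, so that loss of vhl leaves the pathway on in normal air. HIF binds DNA at hypoxia response elements, which can lie at promoters as well as at enhancers far from any gene.

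The study sequenced Hif-1α chromatin immunoprecipitates (ChIP) and unprecipitated input chromatin from vhl (von Hippel Lindau) mutant and wild-type embryos, both of the TL/LWT mix strain and 4 days post fertilisation, with 1 library of each kind per genotype. Precipitation used a custom Hif-1α antibody, and each library came from many pooled, de-yolked whole embryos, so all tissues are mixed. According to the methods, the mutants were homozygous for the hu2117 allele and also carried a phd3:gfp hypoxia reporter, by whose fluorescence they were sorted. With 1 library per genotype and kind there is no replicate error, so all intervals here cover counting error only and describe these libraries. The vhl ChIP library held 33429235 uniquely mapped reads, of which 16145214 remained as tags (1 read per position), against 16780814 reads and 7554444 tags in the wild-type ChIP library. Input libraries kept 8584659 tags for vhl and 9102419 for wild-type, and each list was called against its own input. The ratio of kept ChIP tags, vhl over wild-type, was 2.14. Genotype and depth cannot be told apart in any comparison of the 2 lists.

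To ask whether isolated peaks were common or rare for a list of this size, their number was set beside the number that peaks placed evenly and at random on their own chromosome would give. The vhl list held 3.83 peaks per Mb over 1350.6 Mb between the outermost called peaks, with a mean of 261848 bp and a median of 120377 bp between neighbouring summits. Even placement would leave 1115 peaks isolated (21.5%), so the observed 830 was 0.745 of that number. Without chromosome 4, which holds a very long stretch with no vhl peak, 809 were observed against 1058 under even placement, a ratio of 0.765. Isolated peaks were therefore fewer than even placement gives. This comparison is a description of the same positions by which the peaks were chosen, and no test was attached to it.

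The shortfall was not spread over all distances. Peaks with a neighbour within 10 kb numbered 1125 against 388 under even placement, 2.90 times as many. Those between 100 and 200 kb from their neighbour numbered 826 against 1274 (0.648), and those between 200 and 300 kb 376 against 588 (0.639). Beyond 500 kb the order turned round. There were 164 peaks between 500 and 1000 kb from their nearest neighbour, against 118 under even placement (1.39 times), and 16 beyond 1000 kb, against 4.47 (3.58 times). The vhl list thus held more very close and more very remote peaks than even placement, and fewer between about 50 and 500 kb.

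**Figure D1:**
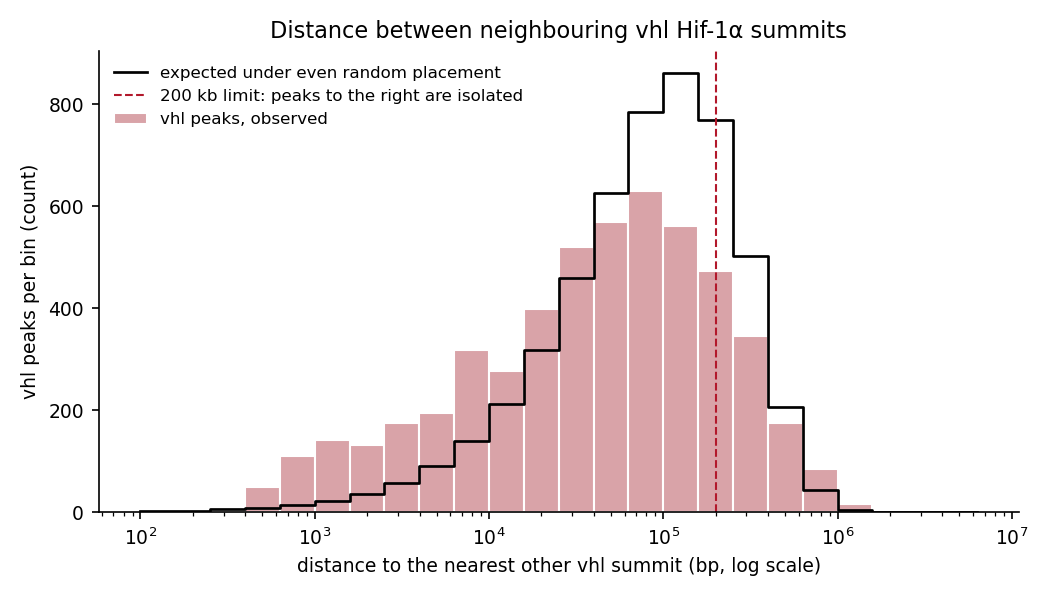
Distance from each vhl summit to the nearest other vhl summit (x axis, bp, log scale) against the number of vhl peaks per bin (y axis). Bars are the observed 5177 peaks, the black line is the number under even random placement, and the dashed line marks the 200 kb limit. The bars stand above the line between about 400 bp and 40 kb, below it around the limit, and above it again toward 1 Mb, where 16 peaks lie beyond 1000 kb against 4.47 under even placement.

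The choice of limit therefore decided whether isolated peaks were fewer or more than under even placement. With a limit of 100 kb, 1656 peaks were isolated against 2389 under even placement (0.693), and with 300 kb 454 against 526 (0.862). With 500 kb, 180 were isolated against 122 (1.47). By chromosome, the count was below even placement on 25 of 25 chromosomes at 200 kb, on 16 at 300 kb and on 3 at 500 kb, where 22 were above it. Ending the placement on chromosome 4 at its long stretch gave ratios over all chromosomes of 0.770 at 200 kb, 0.909 at 300 kb and 1.62 at 500 kb. On chromosome 4 itself the order then turned round at 200 kb, with 20 isolated peaks against 19.1, so that 24 of 25 chromosomes stayed below.

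To see whether the wild-type list showed the same spacing, the 200 kb rule was applied to its 1280 peaks and, for an equal number of peaks, to the 1280 vhl peaks with the highest scores. Among those vhl peaks, 676 were isolated against 872 under even placement (0.775). Among the wild-type peaks, 833 were isolated against 873 (0.954). At a 10 kb limit the ratios were 0.899 for the vhl peaks and 0.976 for the wild-type peaks. At 500 kb they were 0.811 for the vhl peaks and 0.962 for the wild-type peaks. At these limits the wild-type peaks lay nearer to even placement, whereas at 1000 kb the order turned round, with 0.998 for the vhl peaks and 0.948 for the wild-type peaks. The libraries behind the lists differ in depth, and the lists differ in strength. The caller's estimated share of false peaks was at most 5% for 46 of the 1280 wild-type peaks (3.59%) and for 77.1% of all vhl peaks. The part of depth and of peak strength in the spacing difference was not tested.

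Isolated peaks were found on all 25 chromosomes, with 21 to 49 on each and a median of 31. Chromosome 16 held the most, 49, which was 0.997 of the 49.1 under even placement and the closest of any chromosome. Chromosome 4 held the fewest, 21 against 56.6 (0.371), and the next lowest ratio was 0.591 on chromosome 7, with 40 against 67.7. As a share of a chromosome's own vhl peaks, isolated peaks ranged from 10.8% on chromosomes 11 and 19, which had the highest densities of vhl peaks at 4.79 and 5.00 per Mb, to 22.5% on chromosome 9, which had 2.92 per Mb. Chromosome 4 had the lowest density, 2.58 per Mb, but an isolated share of 13.3%, and chromosome 16 had 22.2% at 3.77 per Mb. Over the 25 chromosomes the isolated share tended to fall with peak density (Pearson's r = -0.546, Spearman's rho = -0.579, both given as descriptions because the share and the density come from the same positions).

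**Figure D2:**
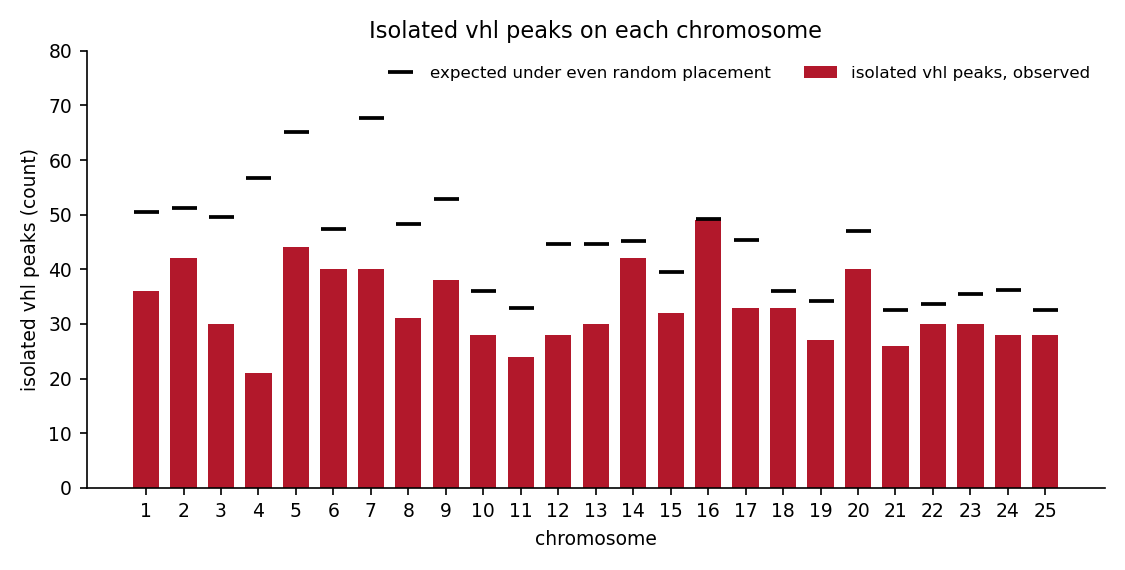
Number of isolated vhl peaks on each of the 25 zebrafish chromosomes (bars) and the number under even random placement of that chromosome's vhl peaks (black dashes). The bars run between 21 on chromosome 4 and 49 on chromosome 16, and each lies below its dash, on chromosome 16 by a small margin.

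Along the chromosomes, isolated peaks were less concentrated near the ends than the other vhl peaks. Position was measured from the nearer end of each chromosome's range, so a zone 10% wide occurs at both ends and covers 20% of the range. The outermost 10% at both ends together held 20.4% of isolated and 25.4% of other vhl peaks. Vhl peaks were densest there, at 4.71 per Mb. The zone from 20% to 30% of the range from the nearer end held 21.2% of isolated and 16.3% of other vhl peaks. It had the lowest density of vhl peaks, 3.28 per Mb. Isolation and density come from the same positions, so this contrast is a description. Of the 50 outermost vhl peaks of the chromosomes, 8 were isolated and have a neighbour on 1 side only.

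Isolated peaks were often each other's neighbours. The rule itself favours this, since a gap over 200 kb counts for the peaks at both of its ends. No number of runs under even placement was computed. The 830 peaks formed 463 runs of consecutive isolated peaks, of which 266 were single peaks, while 564 peaks had another isolated peak next to them. The longest run, 11 peaks on chromosome 22, reached from chr22:23090443-23091050 to chr22:31360179-31360819 (Zv9, as are all positions here). It spanned 8.27 Mb between its first and last summit and 10.0 Mb between the vhl summits that bound it, so the density was 1.10 vhl peaks per Mb against 4.12 on the whole chromosome. Its peaks had 23 to 106 tags with a median of 35, and the FDR, the caller's estimated share of false peaks, was at most 5% in 6 of the 11. Across it 3 wild-type peaks were called, or 0.299 per Mb, against 0.521 on the whole of chromosome 22, the lowest density of any chromosome. None of the 3 overlapped a peak of the run.

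The median distance from an isolated summit to its nearest neighbour was 318 kb, and the highest was 1483 kb. The peak farthest from any other, chr20:11444502-11444922, had its neighbours at 1483 and 2364 kb and only 31 tags, with a score of 86.6. Here the score is minus 10 times the log10 of the caller's p-value. It was followed by chr22:31360179-31360819, the last peak of the long run, at 1339 kb with 35 tags and a score of 54.0, and by chr24:11593569-11594147 at 1247 kb with 46 tags. The next 2 were both on chromosome 5, chr5:13119796-13120279 at 1174 kb with 36 tags and chr5:59921509-59922057 at 1168 kb with 38 tags. None of these 5 most remote peaks was a strong one by tags or score, and none was overlapped by a wild-type peak.

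At the limit itself, the peaks just inside were chr22:3982973-3983513 (200219 bp from its neighbour, 26 tags), chr2:16863139-16863976 (200230 bp, 75 tags) and chr20:9961574-9961998 (200436 bp, 57 tags). Just outside were chr20:44787784-44788638 and chr20:44987798-44988242, 199933 bp from each other with 69 and 37 tags, and chr19:10818530-10819148 (199719 bp, 61 tags). The tag numbers of these peaks on the 2 sides of the limit overlapped, but so few peaks cannot show whether the sides differ. The limit cuts through a continuous range of distances.

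How isolated peaks looked in the vhl library itself is a description, since the members were chosen from the same list. They were slightly shorter and had slightly fewer tags than the rest. The median length was 554 bp in isolated peaks (quartiles 478 and 645 bp) and 569 bp in other vhl peaks (490 and 669 bp). The median number of tags was 45 in isolated peaks (33 and 65.8) and 48 in other vhl peaks (35 and 74). Tags per kb of peak had a median of 79.7 in isolated peaks (66.7 and 107) and 83.2 in other vhl peaks (66.6 and 119). For tags per kb the lower quartiles were almost the same, and the gap opened in the upper part of the distribution. For tags the gap was small at the lower quartile and widest at the upper one. For length it was already present at the lower quartile and grew toward the upper one.

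Isolated peaks were also slightly lower by the caller's measures of strength. The median score was 89.3 in isolated peaks and 97.2 in other vhl peaks, and the median fold enrichment over local background was 26.3 in isolated peaks and 27.6 in other vhl peaks. An FDR of 5% or less was reached by 628 isolated peaks (75.7%) and by 3362 other vhl peaks (77.3%), with 77.1% over all vhl peaks. Vhl peaks with another summit within 10 kb, which are part of the other vhl peaks, were the strongest by each of these measures. They had a median of 589 bp, 51 tags, 86.2 tags per kb and a score of 110. Vhl peaks between 100 and 200 kb from their neighbour had a median score of 93.6, and 76.6% had an FDR of 5% or less. Both values lay between those of isolated and other vhl peaks.

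The difference ran over the whole range of tags. By classes of tag number, isolated peaks had the higher share in each class below 50 tags and the lower share above. At 200 tags or more there were 23 isolated peaks (2.77%) and 210 other vhl peaks (4.83%). From 30 to 49 tags there were 376 isolated (45.3%) and 1804 other vhl peaks (41.5%). The class starting at 15 tags held 0.843% of isolated and 0.345% of other vhl peaks. The class starting at 20 tags held 13.4% of isolated and 11.2% of other vhl peaks. For the class starting at 100 tags, the shares were 8.19% of isolated and 10.95% of other vhl peaks. Isolated peaks made up 17.4% of the vhl peaks in the lowest quartile of score, 17.0% and 16.5% in the middle quartiles, and 13.2% in the highest. They held 9 of the 100 highest scores and 131 of the 1000 highest. All isolated peaks together held 50388 tags, or 14.0% of the tags in vhl peaks, on 15.5% of the base pairs.

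**Figure D3:**
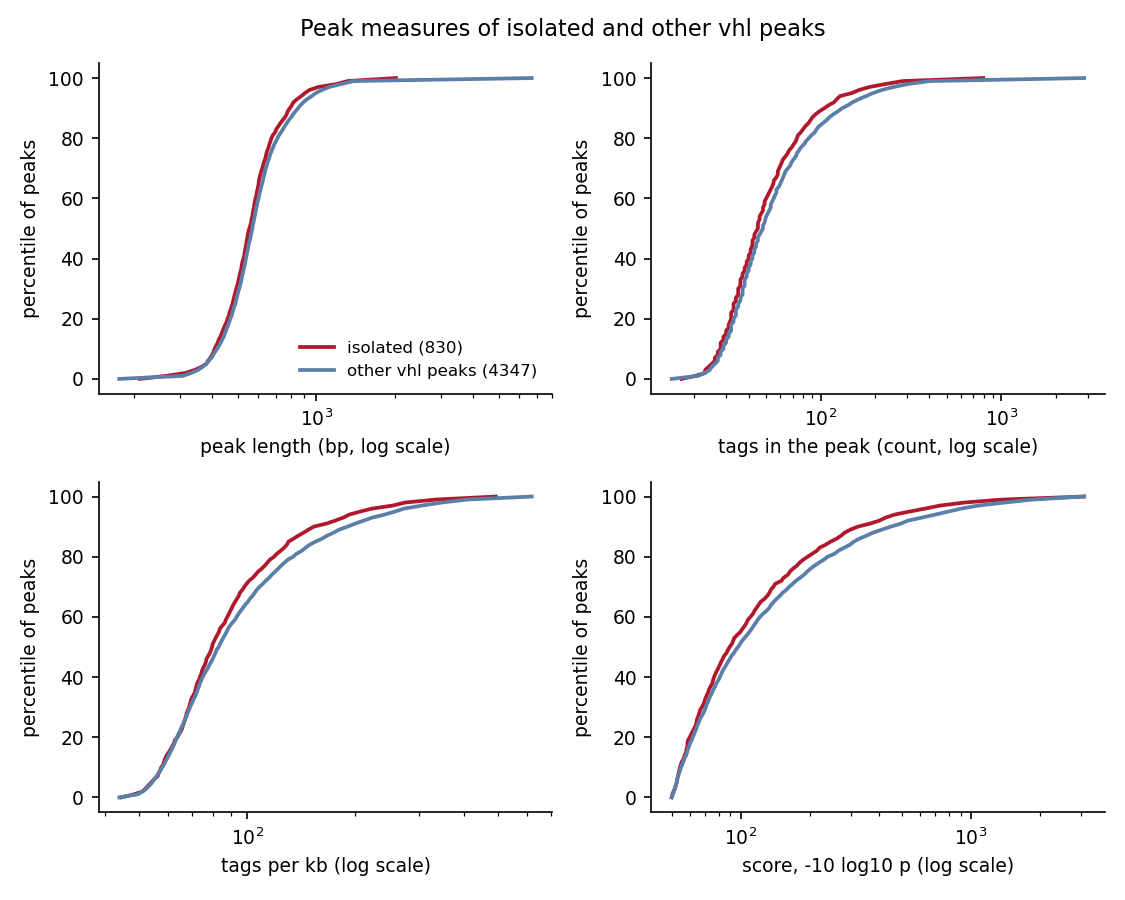
Percentile curves of peak length (bp), tags, tags per kb and score for the 830 isolated (red) and the 4347 other vhl peaks (blue), with log scales on the x axes and the percentile of peaks on the y axes. The curves of tags, tags per kb and score lie close at low values and part in the upper part, where other vhl peaks reach higher values. For length they are already slightly apart at percentile 15, at 434 bp in isolated and 446 bp in other vhl peaks. The medians are 45 tags in isolated and 48 tags in other vhl peaks.

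Within a given range of score the shapes of the peaks were close. In the highest quartile of score, isolated peaks had a median of 658 bp and 104 tags and other vhl peaks 669 bp and 112 tags. In the lowest, they had 493 bp and 31 tags, against 511 bp and 32 tags in other vhl peaks. Among the isolated peaks, distance to the neighbour told little of strength. Spearman's rho of nearest distance was 0.0076 with score, -0.050 with tags and -0.070 with length over the 830 peaks of this 1 library. By distance, the median was 45 tags between 200 and 300 kb, 45 between 300 and 500 kb, 42.5 between 500 and 1000 kb and 42 beyond that, over 376, 274, 164 and 16 peaks.

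The lower tag numbers were seen on most but not on all chromosomes. The median number of tags was lower in isolated than in other vhl peaks on 17 chromosomes, higher on 6 and equal on 2. For length, isolated peaks were lower on 19 chromosomes and higher on 6, for tags per kb lower on 17 and higher on 8, and for score lower on 15 and higher on 10. The share with an FDR of 5% or less went the other way, lower in isolated peaks on 11 chromosomes and higher on 14. The gap in tags was widest on chromosome 22, with a median of 34 tags in 30 isolated peaks and 48 in other vhl peaks, and on chromosome 10, with 34 tags in 28 isolated peaks and 47 in other vhl peaks. The opposite order was seen on chromosome 15, with 49.5 tags in isolated and 43 in other vhl peaks. Each chromosome held only 21 to 49 isolated peaks, so these medians are rough.

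The strongest isolated peaks were among the strongest of the list. The highest score in the list, 3100, was shared by 8 vhl peaks, so the score cannot rank these among each other. Of the 8, 2 were isolated, and these 2 differed in tags and in fold enrichment. They were chr25:25756573-25758453, with 676 tags over 1881 bp (359 tags per kb, 206-fold over background), and chr25:26372469-26374082, with 794 tags over 1614 bp (492 tags per kb, 114-fold). By tags they ranked 10 and 4 of all vhl peaks, and the second had the highest number of tags of any isolated peak. They are next to each other on the chromosome, 615 kb apart, and apart from this pair no vhl peak was called over 2.51 Mb. Further peaks lay 925 kb before the first and 965 kb after the second.

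The next 3 by score were chr21:5818220-5819161 with 346 tags and a score of 1663, chr3:14998601-14999386 with 306 tags and 1589, and chr12:10855197-10856387 with 399 tags and 1583. Their nearest neighbours lay at 216, 423 and 403 kb. At the other end, the 5 isolated peaks with the fewest tags were chr5:69188031-69188286, chr9:53682488-53682738, chr19:18142362-18142584 and chr21:42707628-42707888 with 17 tags each, and chr18:28318489-28318742 with 18. Their scores were at most 53.2, near the lowest in the list, and their FDR between 18.5 and 25.7%. In length they ran between 223 and 261 bp.

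The study also tested regions by ChIP-qPCR. All 21 regions whose positions its list of peak primers gives fell in vhl peaks with a neighbour within 200 kb, and 0 in an isolated peak. Isolated peaks were 16.0% of all vhl peaks and held 9 of the 100 highest scores. According to the paper, peaks of high significance that held a hypoxia response element were chosen, so the tested regions are no even sample of the list. Regions tested without a listed position were not analysed here.

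To ask whether isolated peaks were also occupied in wild-type embryos, they were intersected with the wild-type list, which took no part in choosing them. A wild-type peak overlapped 22 of 830 isolated peaks by at least 1 bp, or 2.65% (95% Wilson interval 1.76 to 3.98%), against 129 of 4347 other vhl peaks, or 2.97% (2.50 to 3.52%). Over all vhl peaks the share was 2.92%. The difference, isolated minus other, was -0.317 percentage points with a 95% Newcombe interval between -1.37 and 1.09 points, so that a difference of either sign up to about that size cannot be told from none at this depth. A wild-type summit lay within 10 kb of 5.30% of isolated and 5.59% of other vhl peaks, a difference of -0.289 points (-1.80 to 1.57).

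Because overlap was most frequent among the strongest peaks, the comparison was repeated within quartiles of score. In the highest quartile, wild-type peaks overlapped 13 of 171 isolated peaks (7.60%) and 65 of 1123 other vhl peaks (5.79%), a difference of 1.81 points with an interval between -1.64 and 6.93. In the lowest, they overlapped 2 of 226 isolated (0.885%) and 14 of 1071 other vhl peaks (1.31%), a difference of -0.422 points (-1.51 to 1.92). With the other vhl peaks weighted to the scores of the isolated ones, the difference was -0.106 points (-1.14 to 1.29). In none of these comparisons did the interval leave out 0.

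**Figure D4:**
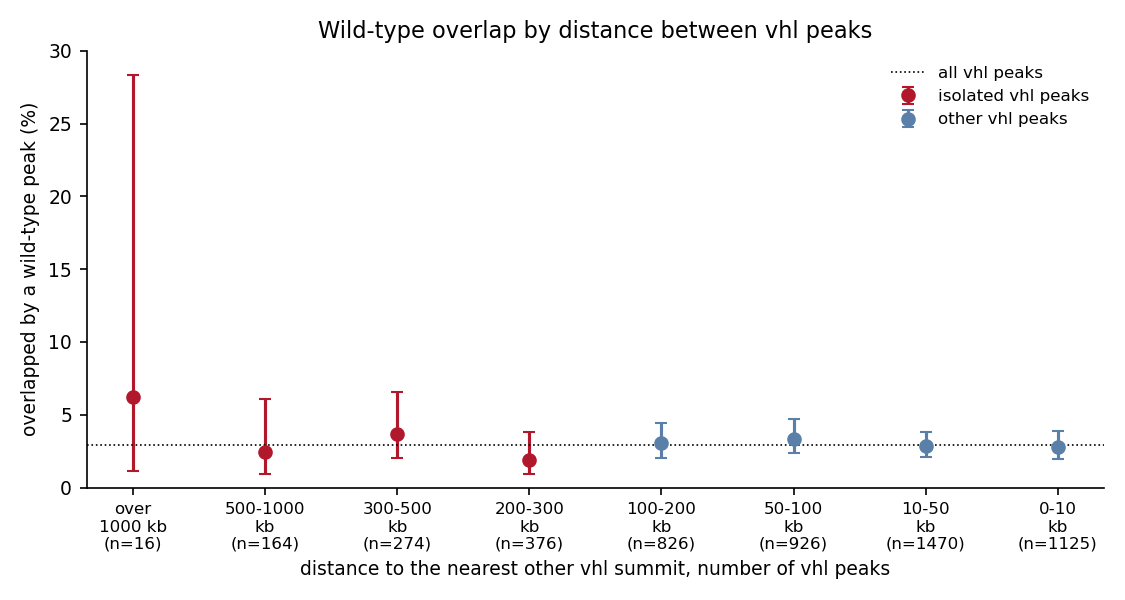
Share of vhl peaks overlapped by a wild-type peak (y axis, %) by distance to the nearest other vhl summit (x axis, with the number of peaks), for isolated (red) and other vhl peaks (blue). Bars are 95% Wilson intervals, the dotted line is the 2.92% of all vhl peaks, and every interval includes it, the widest being that of the 16 peaks beyond 1000 kb.

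The density of wild-type peaks around isolated peaks did not differ from that in the rest of the range beyond counting error. The rest mixes the surroundings of other vhl peaks with parts of the long stretches without vhl peaks. Wild-type peaks were sparser in stretches over 1 Mb, at 0.721 per Mb against 1.05 outside them. The densities therefore do not compare isolated with other vhl peaks. Windows of 200 kb to either side of isolated summits covered 313.2 Mb and held 0.945 wild-type peaks per Mb, against 0.949 in the rest of the range, a ratio of 0.996 with a 95% interval between 0.872 and 1.14. Among wild-type peaks that overlap no vhl peak, the densities were 0.868 and 0.817 per Mb, a ratio of 1.06 (0.924 to 1.22). Counted per peak, a wild-type summit lay within 200 kb of 31.4% of isolated and 37.0% of other vhl peaks, a difference of -5.57 points (-8.96 to -2.03). That interval treats vhl peaks as independent, although close vhl peaks share the same wild-type neighbours, and the density per Mb does not count a wild-type peak more than once.

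The 22 overlapped isolated peaks were richer than the rest, with medians of 81.5 tags, 680 bp and a score of 217, against 44 tags, 550 bp and 87.8 in the 808 without overlap. They held 24 wild-type peaks, of which 22 lay wholly inside the vhl peak, and the median distance between the summits was 50 bp. The wild-type peaks had 6 to 108 tags, with medians of 10.5 tags and 142.5 bp, against medians of 16 tags and 169 bp in the 137 wild-type peaks within other vhl peaks and 7 tags and 99 bp over the whole wild-type list. The number of vhl tags was 1.51 to 67.6 times that of wild-type tags at the same place, with a median of 5.62, in libraries that differ 2.14 times in depth. In that comparison peak length enters too, since vhl peaks are longer.

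An FDR of 5% or less was reached by 5 of the 24 wild-type peaks in isolated peaks (20.8%), 39 of the 137 in other vhl peaks (28.5%) and 46 of all 1280 (3.59%). By score, 11 of the 24 in isolated peaks (45.8%) ranked 100 or better in the wild-type list, as did 74 of the 137 in other vhl peaks (54.0%) and 7.89% of the whole list. The difference between isolated and other vhl peaks in these shares was not tested. The highest-scoring wild-type peak of the whole genome lay inside an isolated vhl peak, the second of the chromosome 25 pair, with 108 tags and a score of 1110 in wild-type embryos, where the vhl peak had 794 tags. The first of the pair was overlapped by a wild-type peak of 10 tags with a score of 81.3 and an FDR of 78.1%. No wild-type peak besides these 2 was called in the 2.51 Mb around them.

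Beyond that pair, the overlapped isolated peaks with the highest vhl scores were spread over 9 chromosomes. The one at chr12:10855197-10856387 had 399 tags in vhl and 16 in wild-type embryos, and chr14:49047000-49047725 had 271 in vhl and 8 in wild-type. Likewise chr12:25524835-25525504 had 268 tags in vhl and 7 in wild-type embryos, and chr15:15405791-15406359 had 148 in vhl and 8 in wild-type. In these 4 the vhl peak held many times the tags of its wild-type counterpart. At chr9:28909353-28910020 the numbers were closer, with 125 tags in vhl and 61 in wild-type embryos, and the wild-type peak ranked 15 by score in its list. The 5 others were chr20:490542-491148 (83 in vhl and 15 in wild-type), chr1:13168125-13168715 (104 in vhl and 9 in wild-type), chr5:75584314-75585636 (97 in vhl and 6 in wild-type), chr18:27384423-27385112 (76 in vhl and 27 in wild-type) and chr7:14198057-14198818 (88 in vhl and 6 in wild-type). The lowest ratio of vhl to wild-type tags, 1.51, was at chr9:57812887-57814140, with 80 tags in vhl and 53 in wild-type embryos. All these tag numbers are unscaled, and 1.51 is below the 2.14 by which the ChIP libraries differ in kept tags. This peak was singled out after its values were seen. Its score was 127 in the vhl list, whereas its wild-type peak had a score of 547 and ranked 12 in the wild-type list. Among the other overlapped isolated peaks, the score was higher in vhl for some and in wild-type for others.

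Isolated peaks border some of the empty parts of the genome, so the stretches between neighbouring vhl summits were measured too. A stretch over 1 Mb occurred 256 times, against 116 under even placement, and these stretches made up 407.6 Mb or 30.2% of the range. Stretches over 2 Mb numbered 36, against 3.32 under even placement. Of the 830 isolated peaks, 223 (26.9%) bounded a stretch over 1 Mb, and 60 of the 256 stretches had an isolated peak at both ends, 77 at neither. The rule raises the 26.9%, since members were chosen for gaps over 200 kb beside them. That share was not computed for the other vhl peaks. The longest stretch exceeded the longest under even placement on all 25 chromosomes, by 1.06 times on chromosome 16 up to 13.9 times on chromosome 4.

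One stretch stood far outside the others. On chromosome 4 no vhl summit was called between positions 29272088 and 59374648, a length of 30.1 Mb or 49.1% of the chromosome's range, 7.99 times the second longest stretch and against 2.17 Mb under even placement. The peak at its start was isolated. Before the stretch, the chromosome held 153 vhl peaks in 29.3 Mb, 5.23 per Mb, of which 20 were isolated against 19.1 under even placement of those 153. After it there were 5 vhl peaks, 1 of them isolated. The low ratio of isolated peaks on this chromosome thus went with this stretch, and on the part that held peaks their number was close to even placement. In the stretch, 6 wild-type peaks were called, with 6 to 11 tags, scores between 58.9 and 88.2 and FDR between 57.1 and 85.9%. That is 0.199 wild-type peaks per Mb (95% Poisson interval 0.0731 to 0.434), against 0.965 in the rest of the range, so wild-type peaks were sparse there as well.

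**Figure D5:**
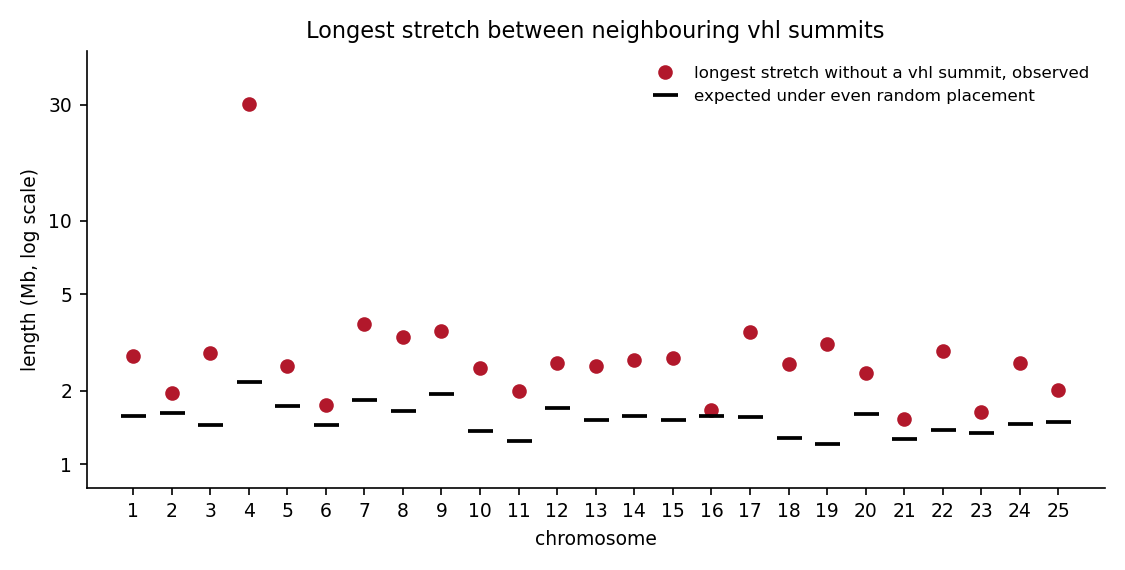
Longest stretch between neighbouring vhl summits on each chromosome (red points, Mb, log scale) and the longest under even random placement (black dashes). All 25 points lie above their dashes, and chromosome 4 stands alone at 30.1 Mb, against 3.77 Mb on chromosome 7, the next longest.

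The other 9 of the 10 longest stretches were much shorter. They lay on chromosomes 7 (3.77 Mb), 9 (3.51 Mb), 17 (3.51 Mb), 8 (3.33 Mb), 19 (3.11 Mb), 22 (2.93 Mb), 3 (2.85 Mb), 1 (2.78 Mb) and 15 (2.72 Mb). Those on chromosomes 9, 17, 19, 22, 3 and 15 had an isolated peak at both ends, and the one on chromosome 22 lay inside the run of 11. No wild-type peak was called in those on chromosomes 22, 3 and 15, whereas the one on chromosome 17 held 8, the most of any stretch over 1 Mb.

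To ask whether stretches empty of vhl peaks were also empty in wild-type embryos, the wild-type peaks inside them were counted. The 256 stretches held 294 wild-type peaks, 0.721 per Mb, against 1.05 per Mb outside, a ratio of 0.690 (95% interval 0.604 to 0.787). Part of this follows from the construction, since a wild-type peak that overlaps a vhl peak can lie inside a stretch only at its very edge, where 10 of the 294 did. Among wild-type peaks that overlap no vhl peak, the stretches held 284, or 0.697 per Mb, against 0.885 per Mb outside, a ratio of 0.787 (0.685 to 0.901). Without the chromosome 4 stretch it was 0.852 (0.741 to 0.977), so the density inside was lower beyond counting error with or without that stretch. Wild-type peaks were absent from 82 of the 256 stretches.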

How the data were processed

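Reads of the 4 libraries were aligned by the study to Zv9 (danRer7) with CASAVA 1.8.2, uniquely mapped reads were kept, and peaks were called with MACS 1.4.2 for each ChIP library against its own input at a p-value of 1.00e-05. In the lists the authors deposited, tags are a raw count of reads per peak with 1 read kept per position, the score is the caller's p-value as −log10, multiplied by 10, fold enrichment is a ratio of ChIP to local background, FDR is in percent, and positions and lengths are in bp. Neither list was scaled to the other. The modelled fragment shift d was 110 bp for vhl and 34 bp for wild-type, which can affect peak lengths and numbers.

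Numbers under even placement are closed-form expected values per chromosome, with peaks placed between the outermost called peaks of either genotype. Overlaps needed 1 bp. Shares carry Wilson, differences Newcombe and densities exact Poisson intervals, all at 95%. No p-value was computed. The formulas were tested on simulated data. The work was done in Python 3.11.15 (pandas 2.3.3, numpy 2.4.6, scipy 1.17.1, and matplotlib 3.10.9 for plots), and 0 columns were left unmapped. Named regions are the 5 isolated peaks with the highest score, the 5 with the fewest tags, the 5 most remote, 3 on either side of the limit, the 12 highest-scoring overlapped by wild-type, and the 10 longest stretches. The run on chromosome 22 was singled out after its values were seen. The members, the rule and the lists were chosen with earlier results of these data known. Motifs, nearest genes and mappability need the Zv9 sequence and annotation and were not analysed here.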

Additional observations from a re-analysis of the deposited data

How the results depend on the processing

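The number of isolated vhl peaks was 830, against 1115 under even placement. It was 827 edge to edge, 822 without the outermost peaks of each chromosome, 898 of 3990 peaks with FDR of 5% or less (1215 under even placement) and 908 of 2481 with a score of 100 or more (1182). The limit moved both numbers most, to 1656 against 2389 at 100 kb, 454 against 526 at 300 kb and 180 against 122 at 500 kb. Even placement gave 1129 with the outermost peaks held fixed and 1123 with 1 density for all chromosomes. Median tags and length were 42.5 and 540 bp at 500 kb. In the list limited to an FDR of 5% or less, isolated peaks had medians of 54 tags, 579 bp, 92.1 tags per kb and a score of 121, and in the list limited to a score of 100 or more 70 tags, 611 bp, 114 tags per kb and a score of 179, which follows from leaving out the weakest peaks. The share of isolated peaks overlapped by wild-type was 4.63% in that second list, 0.602% with wild-type peaks of FDR of 5% or less and 1.33% with wild-type peaks scoring 100 or more. For the other vhl peaks the share was not computed at these settings. The difference, isolated minus other, was tried under 3 other alternatives, and each interval included 0. They were at least 50% of the wild-type peak shared, summits within 500 bp, and weighting by score. Stretches over 1 Mb numbered 415 in the list limited to a score of 100 or more, against 383 under even placement, and 167 where wild-type peaks also bounded them, with a longest stretch of 10.1 Mb. Leaving out chromosome 4, chosen after seeing the data, gave 252 stretches and a longest of 3.77 Mb. Of 62 alternative values, 39 stayed within 1.5 times the first value (counts and stretch lengths), within its 95% interval (shares and medians) or kept an interval that includes 0 (differences).

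No paired analysis was possible because each genotype and kind has 1 library. With 22 overlaps, a difference of 1 percentage point in the wild-type comparison could not be shown. The part of depth, of genotype and of uniquely mappable sequence in the spacing was not tested.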
